A study of Saccharomyces cerevisiae with 30 samples.

Results

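The 10 genes described here encode amino acid permeases of the yeast plasma membrane: GAP1, AGP1, BAP2, BAP3, TAT1, TAT2, GNP1, DIP5, HIP1 and CAN1. They were chosen by name, as the rows with these symbols among the 7127 genes of the expression table, and all 10 were present. The data follow their transcripts while Saccharomyces cerevisiae (budding yeast) loses the centromere of chromosome IV. RNA-seq libraries were made at 0, 30, 60, 120 and 180 min after addition of 1 µM beta-estradiol to cultures kept in YPD (rich medium with glucose) and 30 °C. Strain and time gave 10 groups with 3 libraries each, from independent experiments, 30 libraries in all.

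All cells were haploid MATa of the S288c background and carried a Cre recombinase fused to EBD78, an estradiol-binding domain, in a cassette labelled GDP-cre with the LEU2 marker. Alleles met15-delta-0, ura3-delta-0, leu2-delta-0 and his3-delta-1 were common to both strains, so histidine, methionine and uracil have to come from the medium. The control, called CEN4, has the cassette at ura3 and an unmodified centromere. The other strain is lox-CEN4-lox:KanMX, with no site given for its cassette; it is called CEN4* before induction and cen4- after, when Cre has cut the centromere out. Which share of the cells had lost the centromere at each time was not analysed here. Library totals ran from 8218002 to 14956813 reads. URA3 and MET17 (MET15) were at 0 reads in every library, which allows up to 3.65e-05% of the smallest library, the share of 3 reads; this covers counting error only. LEU2, the marker of the cassette, averaged 3680 normalised counts in CEN4 and 2049 in CEN4* at 0 min and was called lower in CEN4* (-0.84 on the log2 scale, limma adjusted p = 2.1e-26). HIS3 did not pass at 0 min (-0.038), and both were called lower in cen4- at 180 min in the direct comparison (-1.21 and -0.54) and relative to the course of the control (-0.37 and -0.50). Transcripts of 6 MATa markers averaged from 1286 (AGA2) to 12992 (STE2) normalised counts, and 4 MATalpha markers from 12.5 (MF(ALPHA)1) to 494 (SAG1). The 6 MATa markers were all lower in cen4- at 180 min relative to the course of the control, with a median of -0.76 on the log2 scale, and all lower in CEN4* than in CEN4 at 0 min (median -0.24). The part of these genes in the results below was not tested.

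Yeast imports amino acids through permeases of one family with different substrate ranges. One branch of their control is the SPS sensor (Ssy1, Ptr3 and Ssy5), which reads external amino acids and releases the transcription factors Stp1 and Stp2 by proteolysis; AGP1, BAP2, BAP3, TAT1 and GNP1 are known targets. Another is nitrogen catabolite repression, in which a good nitrogen source keeps GATA factors from genes such as GAP1, and permeases at the cell surface are removed by ubiquitin ligation through Rsp5 and its arrestin adaptors.

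GAP1, the general amino acid permease (YKR039W, chrXI:515063-516871, plus strand), takes up nearly all amino acids. AGP1 (YCL025C, chrIII:76018-77919, minus strand) is a permease of low affinity and broad range. Its closest relative among the 10, GNP1 (YDR508C, chrIV:1466453-1468444, minus strand) carries glutamine with high affinity. BAP2 (YBR068C, chrII:373861-375690, minus strand) and BAP3 (YDR046C, chrIV:548762-550576, minus strand) carry branched-chain amino acids. TAT1 (YBR069C, chrII:376574-378433, minus strand) carries tyrosine and branched-chain amino acids, and TAT2 (YOL020W, chrXV:286172-287950, plus strand) carries tryptophan and tyrosine. DIP5 (YPL265W, chrXVI:41043-42869, plus strand) carries the dicarboxylic amino acids glutamate and aspartate, HIP1 (YGR191W, chrVII:880420-882231, plus strand) histidine, and CAN1 (YEL063C, chrV:31694-33466, minus strand) arginine. These coordinates are coding regions in build R64. Identity of the coding sequences was highest for AGP1 and GNP1 (71.2%) and for BAP2 and BAP3 (70.0%), against a median of 60.9% over all 45 pairs, and no 50-base window of any of the 10 recurred elsewhere in the genome. BAP2 and TAT1 are neighbours on one strand, 884 bases apart. RefSeq places an antisense RNA, TBRT, over TAT1, and because the strand setting of the read counting was not given, TAT1 reads cannot be told apart from TBRT reads. RefSeq describes transcription of TBRT as repressing BAP2 and TAT1; TBRT itself was not analysed here. A dubious reading frame, YGR190C, overlaps HIP1. BAP3 lies 98.9 kb and GNP1 1017 kb from the excised centromere.

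Stretches upstream of 5 of the genes are shown because they hold the letters of elements bound by the factors named above. The search covered the 600 bases before the start codon on both strands, in the R64 genome of RefSeq. Capitals mark the words searched for. The word for GATA factors is GATAAG, which reads CTTATC where it lies on the opposite strand of the gene. That for Stp1 and Stp2 is CGGCTC, which reads GAGCCG on the opposite strand. The word for Gcn4, the activator of amino acid synthesis genes, is TGACTC, and on the opposite strand it reads GAGTCA. The element of Leu3, the regulator of leucine synthesis genes, is longer and reads the same on both strands. No printed match overlaps another. Each stretch reads 5′ to 3′ along the strand of its gene: GAP1 chrXI:514514-514813 on the plus strand, and CAN1 chrV:33722-33826, AGP1 chrIII:78160-78364, BAP2 chrII:375891-376100 and BAP3 chrIV:550927-550986 on the minus strand.
GAP1: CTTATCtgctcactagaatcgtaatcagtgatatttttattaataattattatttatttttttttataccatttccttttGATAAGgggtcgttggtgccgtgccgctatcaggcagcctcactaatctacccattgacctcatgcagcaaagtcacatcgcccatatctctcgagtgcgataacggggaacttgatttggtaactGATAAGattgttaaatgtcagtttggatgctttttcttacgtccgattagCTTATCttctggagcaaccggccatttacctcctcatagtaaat
CAN1: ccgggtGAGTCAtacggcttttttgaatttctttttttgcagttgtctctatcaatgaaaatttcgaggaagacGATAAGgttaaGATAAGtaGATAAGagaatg
AGP1: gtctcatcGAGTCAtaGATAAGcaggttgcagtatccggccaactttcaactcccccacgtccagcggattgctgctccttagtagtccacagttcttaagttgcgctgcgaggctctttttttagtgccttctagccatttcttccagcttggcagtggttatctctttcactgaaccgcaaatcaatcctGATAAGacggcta
BAP2: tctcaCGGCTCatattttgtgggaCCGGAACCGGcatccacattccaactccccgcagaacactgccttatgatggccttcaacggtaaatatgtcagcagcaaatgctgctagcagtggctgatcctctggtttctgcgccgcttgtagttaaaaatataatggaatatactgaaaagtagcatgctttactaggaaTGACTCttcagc
BAP3: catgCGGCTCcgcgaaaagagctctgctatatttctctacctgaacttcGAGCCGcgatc

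GATAAG was found in 3 of the 10 permease promoters, against 26.8% of 5999 promoters of the same length. GAP1 held 5 copies, 1 of them downstream of the stretch shown, a number reached by 7 of the 5999 promoters (0.117%). CAN1 held 3 copies, all within bases 286 to 262 before the start codon, and AGP1 held 2; at least 3 copies occurred in 0.7% of promoters and at least 2 in 4.92%. CGGCTC was found in BAP2 and in BAP3, at bases 405 and 406 before the start codon, and BAP3 had a second copy on the other strand; 8.02% of promoters held it. TGACTC was found before AGP1, BAP2, CAN1 and HIP1 (15.3% of promoters), and the Leu3 element before BAP2 alone among the 10 (0.333%). These 4 elements were not found in the windows of TAT1, TAT2, GNP1 and DIP5. Only exact letters were searched, and a match is no evidence of binding. The deposited annotation column lists a TATA box for 5 of the 10, BAP2, TAT1, AGP1, GNP1 and DIP5, against 17.6% of the 4352 genes it annotates.

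**Figure D1:**
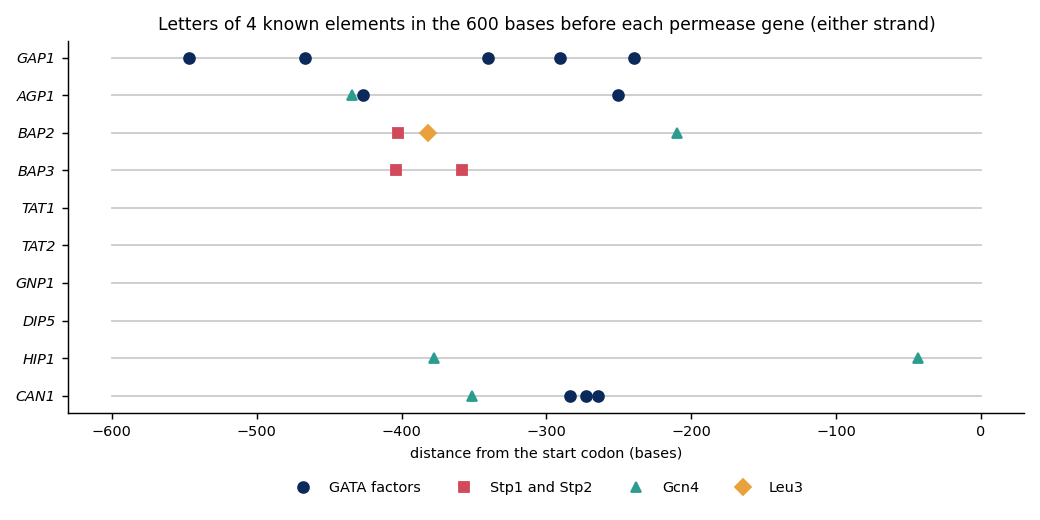
Positions of 4 short elements, written as the letters known to be bound by GATA factors, Stp1 and Stp2, Gcn4 and Leu3, in the 600 bases before the start codon of each of the 10 permease genes (x axis, bases from the start codon; each point is a match on either strand). GAP1 has 5 GATA matches, CAN1 has 3 close together, and the rows of TAT1, TAT2, GNP1 and DIP5 are empty.

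Levels are given as normalised counts, the read count of a gene divided by the size factor of its library. To compare genes, they were also divided by coding length in kb. In untreated CEN4 cells the TAT1 transcript stood highest, at 3969 ± 4.99 normalised counts per kb (SD, n = 3), followed by GNP1 at 3119 ± 94.8, HIP1 at 2283 ± 66.4, BAP2 at 2171 ± 46.5 and BAP3 at 2159.9 ± 19.6. BAP2 and BAP3 overlapped, as did TAT2 (1684 ± 37.3) and CAN1 (1683 ± 65.1), which came after AGP1 (1805 ± 31.7). DIP5 (595 ± 25.2) and GAP1 (197 ± 19.6) were lowest, without overlap. At 180 min TAT1 was still first in CEN4 cells, at 2598 ± 22.6 per kb, with GNP1 (1886 ± 54.1) and BAP3 (1780.1 ± 65.0) overlapping behind it. In cen4- cells at 180 min the order had changed at the top: BAP2 stood first at 2415 ± 11.9 per kb, then AGP1 at 2209.8 ± 31.0 and TAT1 at 1806 ± 26.3, none overlapping the next. BAP3 (1686 ± 42.2) and GNP1 (1679 ± 28.6) overlapped below them.

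The strains were first compared at 0 min, before beta-estradiol was added. Transcripts of 3 of the 10 permeases were higher in CEN4* than in CEN4 at 0 min, where 15.9% of the 5948 tested genes were called in this comparison (8.83% higher). A gene was called when its adjusted p (Benjamini-Hochberg over all tested genes, limma) was below 0.05. GAP1 read 338, 397 and 333 normalised counts in CEN4 and 501, 500.2 and 489.5 in CEN4*, and the groups did not overlap: the log2 difference was 0.48 ± 0.068 (SE; limma adjusted p = 1.52e-07). BAP2 was higher by 0.19 (adjusted p = 6.55e-05) and GNP1 by 0.11 (adjusted p = 0.0273) on the log2 scale. Under scaling of each library to the same total 7 permeases were called, all higher, AGP1, BAP3, DIP5 and CAN1 in addition, while the genes called in all went from 945 to 1163 of 5948. AGP1 was also called higher by edgeR (0.11, adjusted p = 0.0325) and by DESeq2 (0.11, adjusted p = 0.0387). Without 1 library the number of permeases called by limma was 2 to 5, the 5 without CEN4 replicate 3 of 120 min. The GNP1 call was lost, at 0.095 to 0.10, without CEN4 replicate 1, CEN4 replicate 2 or CEN4* replicate 1 of 0 min. In bulk RNA, fewer cells with a transcript and less of it per cell cannot be told apart, here and below. By their labels the strains differ in the lox sites, the KanMX marker and what is given of the cassette's site, whose parts in the differences at 0 min cannot be told apart; LEU2 and the 6 MATa markers were lower in CEN4* here, as given above.

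In the control strain, which keeps its centromere, permease transcripts changed over the time course; the parts of beta-estradiol and of time in culture cannot be told apart. GAP1 rose and the other 9 fell in CEN4 between 0 and 180 min, where 71.2% of tested genes were called (36% higher, 35.2% lower). GAP1 went from 338, 397 and 333 normalised counts at 0 min to 881, 899 and 909 at 180 min, a log2 change of 1.33 ± 0.068 (limma adjusted p = 6.44e-24). Its mean was higher at each later time, 506 at 30 min, 614 at 60 min and 764 at 120 min. GNP1 showed the largest fall of the 10, from 6119.7, 6089 and 6430.4 to 3859, 3644 and 3765, -0.73 ± 0.037 on the log2 scale (adjusted p = 1.27e-26). TAT1 fell by 0.61 (adjusted p = 2.02e-22), from 7382 ± 9.28 to 4832 ± 42.1 normalised counts (SD, n = 3). HIP1, BAP2, TAT2 and CAN1 changed by -0.44, -0.43, -0.42 and -0.42, and DIP5, BAP3 and AGP1 by -0.29, -0.28 and -0.28. The scaling to the same total, in place of the size factor, raised the median change over all genes at 180 min by 0.21 in CEN4 and by 0.31 in cen4-; the permease values moved up with it, and the calls of AGP1 (-0.067), BAP3 (-0.070) and DIP5 (-0.082) in CEN4 were then lost.

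Not every permease followed a straight course. DIP5 rose within 30 min in CEN4, from 1034, 1114 and 1113 to 1545, 1552 and 1736 normalised counts, without overlap (0.57 ± 0.061, limma adjusted p = 2.64e-10), before it ended below its start. The fall below the start was not called under same-total scaling (-0.082). In cen4- DIP5 rose by 0.58 at 30 min, from 1210.4 ± 42.5 to 1812 ± 59.9, and read 1124, 1134 and 1146 at 180 min, which was not called against its start (-0.092, adjusted p = 0.172) and was called higher under same-total scaling (0.22). AGP1 fell within 30 min in both strains, by 0.71 in CEN4 and by 0.58 in cen4- on the log2 scale, and its means at 180 min were above those at 30 min in both. TAT1 fell early too, by 0.57 in CEN4 and by 0.63 in cen4- at 30 min. At 30 min 9 of the 10 were called in CEN4, all but BAP2 (-0.026), and all 10 in cen4-, where 63.7% and 62.2% of tested genes were called. At 60 min 10 were called in CEN4 and 9 in cen4- (57.1% and 56.5% of genes), and at 120 min all 10 in both (70.6% and 72%). Under same-total scaling, which raised the median change of all genes by 0.12 to 0.28 at these times, the counts were 9, 8 and 8 in CEN4 and 7 at each time in cen4-. At 30 min CAN1 lost its call in CEN4 (-0.052) and BAP2 gained one as higher (0.096), while in cen4- BAP2 (0.016), BAP3 (-0.035) and CAN1 (-0.080) lost theirs. At 60 min BAP2 and BAP3 lost their calls in both strains and CAN1 in cen4- (-0.088), where DIP5 gained one (0.30). At 120 min BAP2 (-0.048) and BAP3 (0.037) lost theirs in CEN4, and AGP1 (-0.022), BAP3 (0.062) and CAN1 (-0.047) in cen4-, where BAP2 was called higher (0.11) in place of lower (-0.17). The split was then 3 higher and 6 lower in CEN4 at 30 min, against 2 and 7. In cen4- it was 2 higher and 5 lower at 60 min, against 1 and 8, and 3 higher and 4 lower at 120 min, against 2 and 8.

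In cen4- cells 8 of the 10 were called at 180 min against CEN4* at 0 min (75.2% of tested genes; 37.5% higher and 37.7% lower). GAP1 rose by 1.34 on the log2 scale, from 501, 500.2 and 489.5 to 1208, 1342 and 1232 normalised counts (limma adjusted p = 3.89e-24), and AGP1 by 0.18 (adjusted p = 3.21e-05). TAT1 and GNP1 fell by 1.05 and 1.00, to 0.483 and 0.498 times their starting levels. TAT2 fell by 0.62, HIP1 by 0.50 and BAP3 by 0.40. CAN1 fell by 0.22, a change that reversed to 0.092 (not called, adjusted p = 0.066) when libraries were scaled to the same total. BAP2 (-0.039, adjusted p = 0.351) and DIP5 (-0.092, adjusted p = 0.172) were not called, and both turned positive and passed the test under that scaling, at 0.27 and 0.22; the split was then 4 higher and 5 lower, against 2 and 6. The summed level of the 10 permeases went from 36481 ± 536 to 26903 ± 250 normalised counts in CEN4 and from 37971 ± 408 to 28382 ± 243 in cen4- (SD, n = 3). This sum was not recomputed under same-total scaling, which raised the median change of all genes at 180 min by 0.21 in CEN4 and by 0.31 in cen4-. The size of both falls therefore depends on the scaling.

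**Figure D2:**
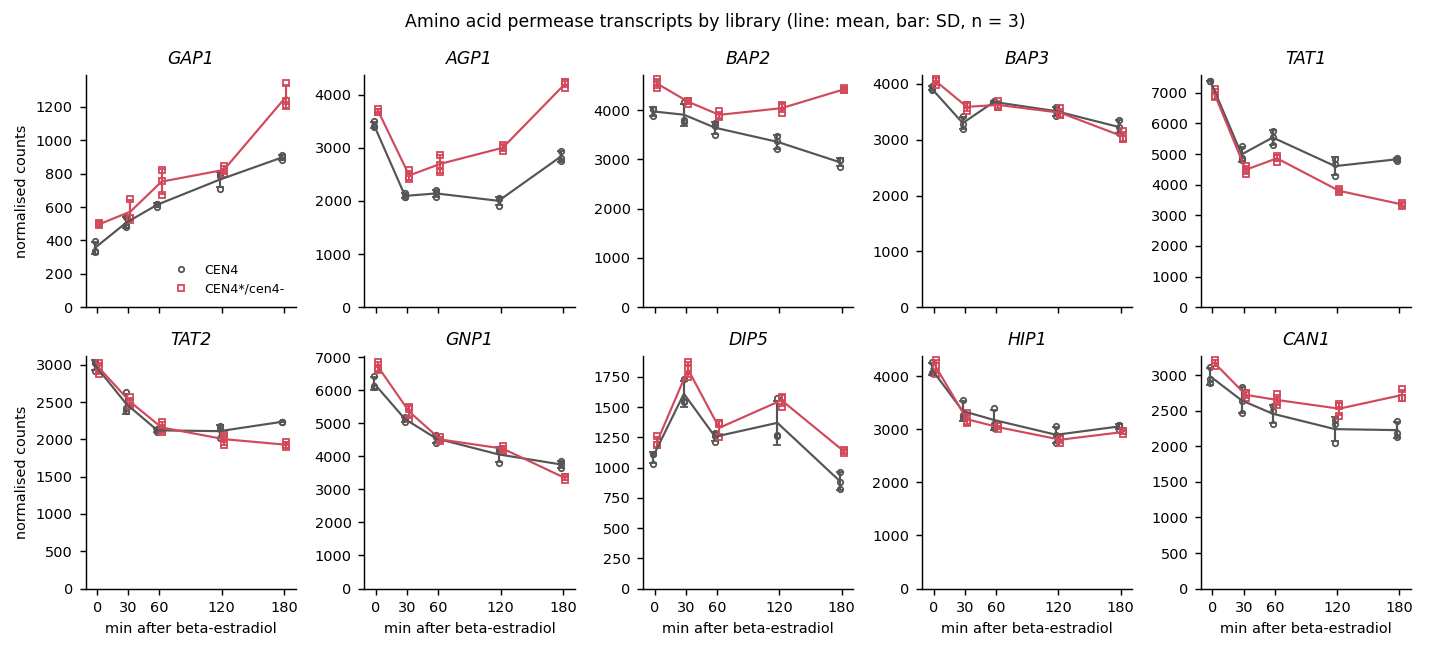
Normalised counts (y axis, from 0) of the 10 permease transcripts at 5 times after beta-estradiol (x axis, min) in CEN4 (grey circles) and CEN4*/cen4- cells (red squares). Each point is 1 library, lines join the means of 3 and bars are SD. AGP1, BAP2 and TAT1 separate by strain at 180 min, while HIP1 stays close in both strains. The HIP1 libraries did not overlap at 180 min either (3086, 3087 and 2992.5 in CEN4, 2968, 2977 and 2906 in cen4-).

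The excision effect asks whether a transcript changed differently once the centromere could be cut out: it is the change since 0 min in cen4- minus the change since 0 min in CEN4, on the log2 scale. The strains also differ in the lox sites, the KanMX marker and what is given of the cassette's site. A response of the strain to beta-estradiol or time that depends on these cannot be told apart from loss of the centromere. At 180 min AGP1, BAP2 and CAN1 were higher by this measure and TAT1, GNP1, TAT2 and BAP3 were lower, 7 of 10, while 42.3% of all tested genes were called (19.8% higher, 22.5% lower). The median over the 10 was -0.030, and that over all tested genes was -0.012; both are smaller than the upward shift of 0.10 under same-total scaling, so their direction depends on the scaling. None of the 10 was called at 30 min by limma, edgeR or DESeq2 (1.85% of genes by limma). GAP1 (-0.31, adjusted p = 0.0759) and AGP1 (0.14, adjusted p = 0.249) were the 2 with an unadjusted p under 0.05. AGP1 alone was called at 60 min (2.91% of genes), and AGP1, GAP1 and TAT1 at 120 min (26.1% of genes). Over all 4 times together, 8 of the 10 were called by a moderated F test (42.1% of genes), all but DIP5 and HIP1. The 4 effects of a gene share their 0 min libraries and are not independent. Scaling to the same total raised the median excision effect of all genes by 0.084 at 120 min and by 0.10 at 180 min. Under it 3 permeases were called higher and 1 lower at 120 min, against 1 and 2. At 180 min 4 were called higher and 2 lower, against 3 and 4, since DIP5 was added and BAP3 and TAT2 were lost.

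AGP1, the permease of broad range, had the earliest and largest positive effect. CEN4 libraries read 3501, 3386 and 3413 before induction, 2039.8, 1913 and 2055 after 120 min and 2805, 2946 and 2757 after 180 min. Those of the other strain read 3678, 3737 and 3678, then 2936, 3012 and 3056, then 4243, 4230.4 and 4135. Every cen4- value at 120 and 180 min lay above every CEN4 value of that time; AGP1 dropped in both strains, and in cen4- it came back above its start. The excision effect was 0.22 ± 0.056 at 60 min (limma adjusted p = 0.01), 0.48 ± 0.056 at 120 min (adjusted p = 2.48e-10) and 0.46 ± 0.056 at 180 min (adjusted p = 3.65e-10), the last a 1.38-fold difference.

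BAP2, the branched-chain permease, was called at 180 min only. It read 3875, 4031 and 4011 in CEN4 at 0 min and 2855, 2987 and 2985 at 180 min. In CEN4* it read 4444, 4628 and 4545 and in cen4- at 180 min 4399, 4442 and 4416. BAP2 had fallen in the control, while its cen4- libraries stood just below their start, and the strains did not overlap at 180 min. The effect was 0.39 ± 0.053 (limma adjusted p = 6.45e-09), a 1.31-fold difference, after -0.097, -0.092 and 0.075 at the earlier times, not called. At 120 min it was called when libraries were scaled to the same total (0.16).

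CAN1, the arginine permease, had a smaller positive effect at 180 min. CEN4 libraries gave 2193, 2359 and 2135 normalised counts at 180 min and cen4- libraries 2676, 2678 and 2811, without overlap, from starting means of 2984 and 3173. The effect was 0.20 ± 0.066 (limma adjusted p = 0.0111). DIP5, the glutamate and aspartate permease, gave 0.20 ± 0.087 and missed the threshold (adjusted p = 0.0633; 95% confidence interval 0.023 to 0.37). It passed when libraries were scaled to the same total (0.30, adjusted p = 0.0112) and, at 0.20 to 0.26, without any of 7 of the 30 libraries: CEN4 replicates 1 of 0 min, 3 of 30 min, 1, 2 and 3 of 120 min and 3 of 180 min, and CEN4* replicate 2.

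TAT1, the tyrosine permease and the most abundant of the 10 at the start, had the largest negative effect. In CEN4 it read 7381, 7373 and 7391 at 0 min and 4853, 4859 and 4783 at 180 min. In CEN4* it read 7129, 6847 and 6889, and in cen4- at 180 min 3413, 3348 and 3318. All 3 cen4- values lay below all CEN4 values at 180 min, and the groups at 0 min were nearer to each other but did not overlap either. At 120 min the effect was -0.19 ± 0.054 (limma adjusted p = 0.00526). By 180 min it was -0.44 ± 0.054 (limma adjusted p = 4.72e-10), 0.738 times the control's course. The call at 120 min was lost under same-total scaling (-0.11, adjusted p = 0.119), and that at 180 min was kept.

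GNP1, the glutamine permease, fell in both strains and further in cen4-. Libraries at 180 min read 3859, 3644 and 3765 in CEN4 and 3372, 3382 and 3279 in cen4-, without overlap, after 6119.7, 6089 and 6430.4 and 6865, 6640.1 and 6627 at 0 min, where CEN4* was the higher. The effect was -0.28 ± 0.052 (limma adjusted p = 1.15e-05). TAT2, the tryptophan permease, read 2235, 2236 and 2236 in CEN4 and 1896, 1969 and 1918 in cen4- at 180 min, again without overlap, an effect of -0.19 ± 0.056 (adjusted p = 0.00391) that was not called under same-total scaling (-0.090, adjusted p = 0.195).

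BAP3, the other branched-chain permease, had the smallest effect among those called. It read 3117, 3353 and 3223 in CEN4 and 3012, 3149 and 3022 in cen4- at 180 min, and here the groups overlapped. The effect of -0.13 ± 0.050 (limma adjusted p = 0.0391) dropped to -0.021 under same-total scaling (adjusted p = 0.775). The call was also lost without any of 8 of the 30 libraries, at -0.13 to -0.098: replicates 1 and 2 of CEN4 and of CEN4* at 0 min, replicates 2 and 3 of CEN4 and replicates 1 and 3 of cen4- at 180 min.

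GAP1, the general permease, was called lower at 120 min and not at 180 min. Its effect was -0.38 ± 0.096 at 120 min (limma adjusted p = 0.00204) and 0.0053 ± 0.096 at 180 min (adjusted p = 0.972; 95% confidence interval -0.19 to 0.20). At 120 min the libraries read 710.4, 797 and 784 in CEN4 and 825, 845 and 797 in cen4-, and the groups overlapped after unequal starts. At 180 min all cen4- values, 1208, 1342 and 1232, lay above all CEN4 values, 881, 899 and 909. The direct difference of the strains was 0.49 at 180 min, close to the 0.48 at 0 min. The value at 180 min turned negative in edgeR (-0.020) and, at -0.075 to -0.0056, without CEN4 replicate 2 or CEN4* replicate 3 of 0 min, CEN4 replicate 1 or cen4- replicate 2 of 180 min. HIP1, the histidine permease, gave the narrowest spread of effects over time, -0.082, -0.077, -0.061 and -0.066, none called. At 180 min its interval ran from -0.18 to 0.050, and the value turned to 0.039 under same-total scaling.

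**Figure D3:**
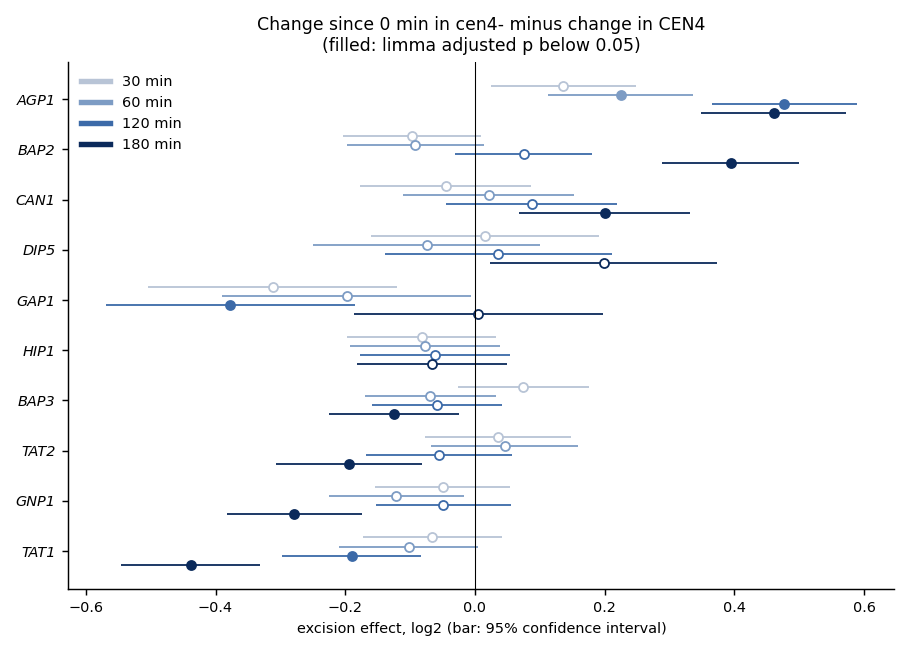
Excision effect (x axis, log2; change since 0 min in cen4- minus that in CEN4) of each permease gene (y axis) at 30, 60, 120 and 180 min, from 3 libraries a group, with 95% confidence intervals as bars; filled points passed limma's adjusted p of 0.05. At 180 min AGP1, BAP2 and CAN1 lie to the right and TAT1, GNP1, TAT2 and BAP3 to the left; BAP3 fell to -0.021 and TAT2 to -0.090, not called, when libraries were scaled to the same total.

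Compared directly at 180 min, 8 of the 10 transcripts differed between cen4- and CEN4 (64.1% of tested genes; 30.9% higher, 33.2% lower). BAP2 (0.59), AGP1 (0.57), GAP1 (0.49), DIP5 (0.35) and CAN1 (0.29) were higher in cen4-. TAT1 (-0.52), TAT2 (-0.21) and GNP1 (-0.17) were lower. HIP1 (-0.050, limma adjusted p = 0.283) and BAP3 (-0.078, adjusted p = 0.0514) were not called. BAP3 was called lower by edgeR (-0.091, adjusted p = 0.0244), by DESeq2 (-0.076, adjusted p = 0.0432) and by limma with no filter on low values (-0.078, adjusted p = 0.0442). Under same-total scaling HIP1 and BAP3 were instead higher in cen4- and called, at 0.11 and 0.082. That scaling raised the median of all genes in this comparison by 0.16, and the lower calls of TAT2 (-0.054) and GNP1 (-0.0073) were lost under it, which left 7 higher and 1 lower, against 5 and 3. At 30, 60 and 120 min the counts of called permeases were 6, 4 and 5 (30.2%, 27% and 52.8% of genes). AGP1 was higher and TAT1 lower in cen4- at each of these times; at 30 min AGP1 differed by 0.24 and TAT1 by -0.15. Under same-total scaling 7 were called higher and 0 lower at 30 min, against 5 and 1, so TAT1 was no longer called there, and 9 were called at 120 min, against 5, while the genes called in all at 120 min went from 3140 to 3670 of 5948.

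Ratios between 2 permeases within a library do not depend on how the library is scaled. AGP1 and GNP1, the pair with the most alike coding sequences, stood at a log2 ratio of -0.86 in CEN4 and -0.86 in CEN4* at 0 min, with overlap. At 180 min the AGP1/GNP1 ratio was -0.46, -0.31 and -0.45 in CEN4 and 0.33, 0.32 and 0.33 in cen4-. GNP1 was thus the higher of the pair in CEN4, and AGP1 in cen4-. The BAP2/BAP3 ratio was -0.13, -0.17 and -0.11 in CEN4 and 0.55, 0.50 and 0.55 in cen4- at 180 min, from means of 0.019 and 0.16 at 0 min. BAP2 and its neighbour TAT1 gave -0.77, -0.70 and -0.68 in CEN4 and 0.37, 0.41 and 0.41 in cen4- at 180 min, from means of -0.89 and -0.62 at 0 min. The latter difference between the strains, 0.28 at 0 min, was 1.11 at 180 min. None of these 3 ratios overlapped between the strains at 180 min (exact permutation test, two-sided, p = 0.1 for each, the smallest that 3 against 3 libraries allow, so this test cannot reach 0.05). BAP2/BAP3 and BAP2/TAT1 did not overlap at 0 min either, so their separation was there before beta-estradiol. At 30 min the BAP2/BAP3 ratio overlapped, with a difference of -0.027 between the strains.

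**Figure D4:**
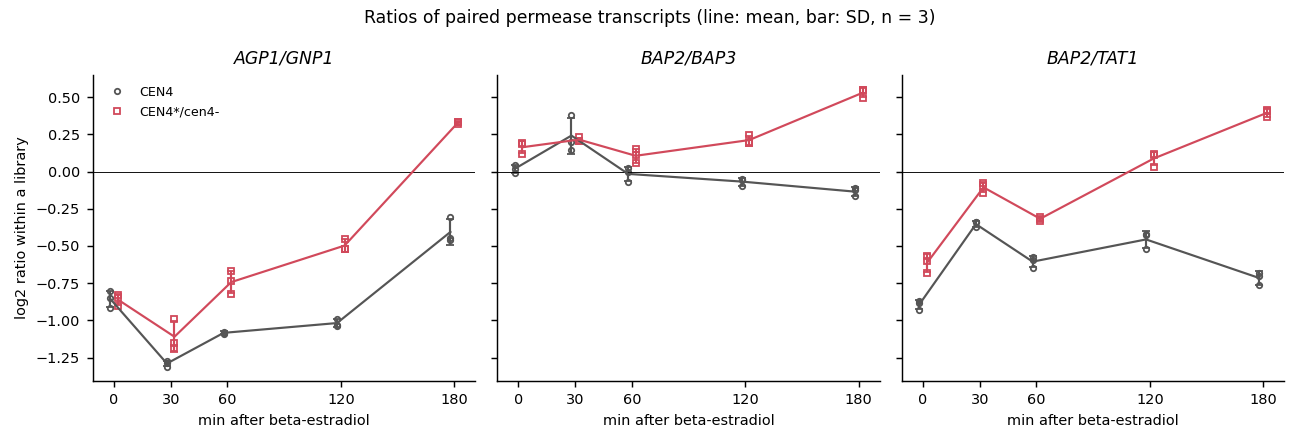
Log2 ratio within each library (y axis) of AGP1 to GNP1, BAP2 to BAP3 and BAP2 to TAT1 at 5 times after beta-estradiol (x axis, min) in CEN4 (grey circles) and CEN4*/cen4- cells (red squares); points are libraries, lines means of 3 and bars SD. All 3 ratios are below 0 in CEN4 and above 0 in cen4- at 180 min.

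BAP3 and GNP1 are the members on chromosome IV, whose 768 tested genes had a median excision effect of 0.14 at 180 min against -0.033 for genes of the other chromosomes. Their own effects, -0.13 and -0.28, lay below both medians. Next to the members, TIP1, the other neighbour of BAP2 and a cell wall mannoprotein gene, was called higher at 0.65, and ALG14, beyond TAT1 and needed for N-glycosylation, lower at -0.47 (limma adjusted p = 1.57e-04). FRM2 beside AGP1 was called higher at 1.14 (adjusted p = 0.00754), while KCC4 on its other side, a kinase gene of the bud neck, was at -2.9e-04 and not called. GIN4, another kinase gene of the bud neck and a neighbour of GNP1, was higher at 0.27, and SMT3, which encodes SUMO, was at 0.029 and not called. AVT2 beside CAN1 was lower at -0.43, while CAN1 itself was higher, and NPR2 on its other side was at 0.019 and not called. Neighbours of the other members are not given here, and 42.3% of all tested genes were called in the excision effect at 180 min.

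Across the 10 group means of log2 levels, the permeases fell into unlike courses, given here as Pearson's r over 10 points. Each point is the mean of its own 3 libraries, and the points come from only the CEN4 and the CEN4*/cen4- strain. TAT2 followed HIP1 (r = 0.94) and GNP1 (r = 0.92). GAP1 ran opposite to GNP1 (r = -0.92). The pairs with the most alike coding sequences did not run together: r was 0.29 for BAP2 and BAP3 and 0.053 for AGP1 and GNP1. For the neighbours BAP2 and TAT1 it was 0.017. The pairs next in identity did run together, BAP3 and TAT1 (64.9% identity, r = 0.82) and TAT1 and GNP1 (64.5%, r = 0.83). Of all tested genes, the ones most like TAT1 were THS1, threonyl-tRNA synthetase (r = 0.996), and RPB8 and RPO26, subunits shared by the nuclear RNA polymerases (both 0.994). GAP1 was most like PCK1, the gluconeogenic enzyme PEP carboxykinase (r = 0.976), RCH1 (0.974) and YJL045W (0.972). AGP1 was most like MET30, an F-box protein of sulfur control (r = 0.943), UCC1 (0.939) and STS1 (0.937). BAP2 was most like BRE1, the histone H2B ubiquitin ligase (r = 0.966), FIT3, a cell wall mannoprotein (0.946), and ARK1, an actin-regulating kinase (0.944). CAN1 was most like RED1 (0.983), GNP1 like SGM1 (0.984), HIP1 like DAT1 (0.991), TAT2 like PGI1 (0.976), BAP3 like ULP1 (0.945) and DIP5 like YLR108C (0.950).

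Other genes around amino acid uptake were read from the same fit; their counts stand beside 42.3% of all tested genes called at 180 min (19.8% higher, 22.5% lower). Of 10 further amino acid permease genes tested, 7 were higher in the excision effect at 180 min and 3 were not called, with a median of 0.55. They included UGA4 (0.87), the permease of gamma-aminobutyrate, MUP3 (0.83), a methionine permease, AGP2 (0.67), a regulator of polyamine and carnitine uptake, and MMP1 (0.59), the permease of S-methylmethionine. Whether the 2 lists differ was not tested. Of 13 genes of the SPS sensor, 4 were higher, 1 lower and 8 not called (median -0.030), near the share over all genes. Those higher included the transcription factor genes STP1 (0.37) and STP2 (0.36) and the sensor subunit PTR3 (0.29), and the lower was ASI3 (-0.17), a subunit of the ubiquitin ligase of the inner nuclear membrane. None of 4 tested regulators of nitrogen catabolite repression was called by limma, none of them had an unadjusted p under 0.05, and DAL80 was too low to test.

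Of 20 other genes for nitrogen uptake and use under that control, 7 were higher and 3 lower (median 0.098). They included DUR3 (1.12), the urea transporter, CAR2 (0.80), an enzyme of arginine breakdown, GLN1 (-0.77), glutamine synthetase, and DAL3 (-0.61), an enzyme of allantoin breakdown. Of 17 genes for export, phosphorylation and ubiquitin control of permeases, 8 were higher, 1 lower and 8 not called (median 0.17), so 9 of 17 were called in all, against 42.3% of all tested genes. The 4 with the largest absolute effects among those called were ROD1 (0.76), CSR2 (0.69) and ROG3 (0.45), arrestin adaptors of Rsp5, and BUL1 (0.39), another adaptor. Of 11 genes of the eisosome, the membrane compartment in which permeases such as Can1 gather, 6 were higher and 2 lower (median 0.19), among them EIS1 (0.78), LSP1 (0.51), NCE102 (0.39) and FMP45 (-0.59). Of 13 tested vacuolar amino acid transporters, 2 were higher and 5 lower (median -0.089), with AVT2 (-0.43), ERS1 (-0.42), AVT5 (-0.37) and YPQ1 (-0.34). Of 6 genes of the Ehrlich pathway, which turns amino acids into fusel alcohols, 1 was higher, the activator ARO80 (0.46), and 2 lower, the decarboxylase ARO10 (-0.36) and the aminotransferase ARO9 (-0.26). Of 14 genes of TORC1, the kinase complex that senses amino acids, and its inputs, 2 were higher, LST8 (0.26) and TOR1 (0.25), and 2 lower, MEH1 (-0.37) and LST7 (-0.22). The upward shift of 0.10 under same-total scaling is larger than the negative medians of the SPS sensor, vacuolar and Ehrlich lists (-0.030, -0.089 and -0.095), so the direction of these medians depends on the scaling.

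**Figure D5:**
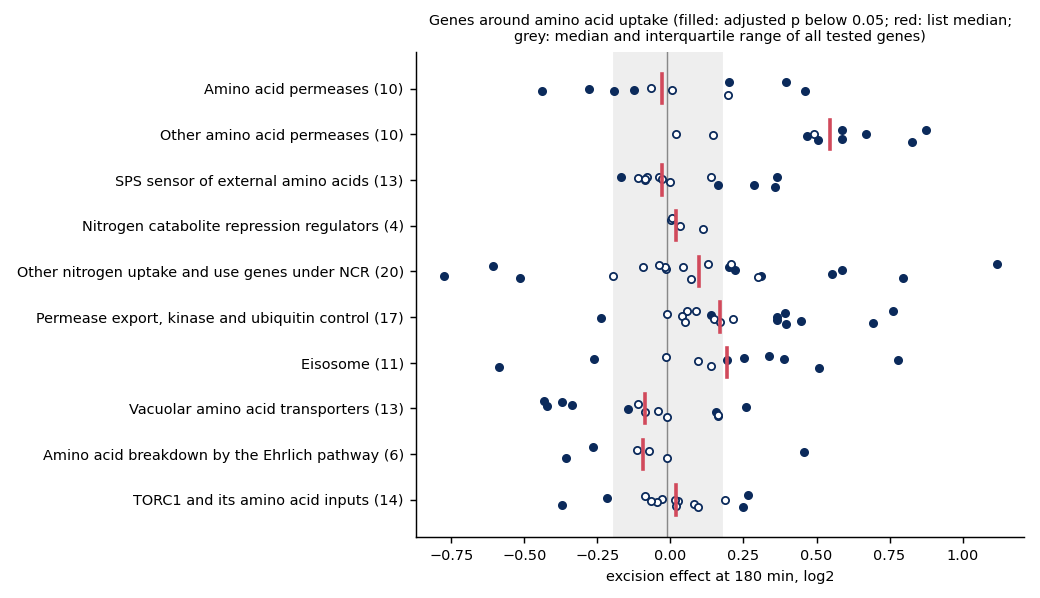
Excision effect at 180 min (x axis, log2) of the tested genes of 10 lists (rows, number of genes in brackets); filled points passed limma's adjusted p of 0.05, red bars are list medians, and the grey line and band are the median and interquartile range of all tested genes. The 10 permeases spread to both sides of 0, while the other amino acid permeases have a median of 0.55.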

How the data were processed

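Total RNA of 30 yeast cultures was sequenced. The deposited values are normalised read counts, a signal that the authors obtained by dividing counts by DESeq2 size factors, per the file headers and the labels; STAR 2.6.1 and DESeq2 are named with build R64 (sacCer3), as listed per the submitters' processing notes. How reads were counted, with or without strand, and against which annotation release was not given in the sources used here; antisense and overlapping reads cannot then be told apart. All deposited values (100% within 1e-06 of a read) were whole multiples of what 1 read is worth, which gave back library totals of 8218002 to 14956813 reads. Of 7127 identifiers, 6047 matched R64.

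Values were tested as log2(value + 1) with limma 3.58.1 in R 4.3.3 (trend and robust options, 10 group means, 20 residual degrees of freedom) over the 5948 genes whose mean reached 10, with Benjamini-Hochberg adjustment over all of them and calls below 0.05. The pseudocount understates changes of low genes. Alternatives were a pseudocount of 10, no filter on low values, scaling to the same total, edgeR 4.0.16 (quasi-likelihood, TMM) and DESeq2 1.42.0 on the recovered reads, a replicate block, and leaving out each library in turn. The fit was tested on simulated data with known changes in the excision effect at 180 min, in 50 genes at each size. It recovered 58% of genes changed 1.25-fold, 90% at 1.5-fold, 94% at 2-fold and 98% at 4-fold. Of 173 genes called there, 3 were false calls. The 30 pairs of replicate libraries differed by 1.48 to 7.75 times counting noise (chi-square per degree of freedom over genes with at least 40 reads), so all were kept as separate samples. Ratios of 2 genes were compared by exact permutation tests (scipy 1.17.1), and sequences were searched with biopython 1.88.

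The members and gene lists were chosen with earlier results of these data known. Named genes were the 10 members, up to 4 called genes of each list with the largest absolute excision effect at 180 min, the 3 genes most alike each member over the group means (only the first for 6 members), and neighbours of members.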

Additional observations from a re-analysis of the deposited data

Results flagged for a closer look

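For 8 of the 10 permeases the change since 0 min differed between the strains over the 4 times together (limma's moderated F test, adjusted p over all tested genes). The value was 3.83e-12 for BAP2, 1.16e-11 for AGP1, 2.15e-09 for TAT1 and 7.16e-05 for GNP1. It was 0.000883 for GAP1, 0.00156 for TAT2, 0.00886 for BAP3 and 0.0148 for CAN1. Among all tested genes 42.1% passed this test. With 3 libraries in each group, single libraries that stand apart were not looked for.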

How the results depend on the processing

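Results were recomputed under 6 other settings and without each of the 30 libraries. Over 140 results for single permeases, 707 of 760 values under other settings and 4138 of 4200 without a library kept their direction and their side of the threshold. These shares pool unlike settings: all 140 were kept with a pseudocount of 10, but 97 of 140 under same-total scaling. Of the rest under that scaling, 19 reversed in direction, some of them with a call lost or gained as well. Among those that kept their direction, 16 lost a call and 8 gained one. Leaving out a library that is not in a comparison cannot move its value, only the shared spread, so much of the agreement without a library was fixed in advance. The number of permeases called rose from 3 to 7 at 0 min and from 5 to 9 in the direct comparison at 120 min when libraries were scaled to the same total, and the genes called in all from 945 to 1163 and from 3140 to 3670. With the replicate block, 1 permease (GAP1, -0.31, adjusted p = 0.0467) was called in the excision effect at 30 min, against none. Deviations of libraries with the same title number in both strains correlated at -0.10 to 0.12 and passed 0.1 in 1 of 15 pairs. No shared part was thus seen, but with 3 libraries a group this cannot show that the samples were unpaired. Under the block BAP3 at 180 min lost its call (limma adjusted p = 0.0531), and DIP5 gained one at 180 min (0.0222) and at 0 min (0.0264). No other call of a permease in the excision effects, at 0 min or in the direct comparison at 180 min changed under the block, which cannot give changes since 0 min within a strain.

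Same-total scaling, which moves all genes of a comparison together, reversed 19 values. Against 0 min they were, in cen4-, 0.016, 0.11 and 0.27 for BAP2 at 30, 120 and 180 min, 0.0096 and 0.062 for BAP3 at 60 and 120 min, 0.22 for DIP5 and 0.092 for CAN1 at 180 min. In CEN4 they were 0.096 and 0.037 for BAP2 at 30 and 60 min and 0.071 and 0.037 for BAP3 at 60 and 120 min. The excision effect at 120 min turned to 0.025 for BAP3, 0.028 for TAT2, 0.035 for GNP1 and 0.022 for HIP1, and at 180 min to 0.039 for HIP1. TAT2 at 0 min turned to 0.036, and the direct difference at 180 min to 0.082 for BAP3 and 0.11 for HIP1. GAP1 at 180 min was -0.020 by edgeR; the cause was not tested. On the recovered reads, edgeR called 2495 genes and DESeq2 2329 in the excision effect at 180 min, against 2516 by limma, and both called 7 permeases, 3 higher and 4 lower.

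Without 1 library, the number of permeases called in the excision effect was 0 to 1 at 30 min, 1 at 60 min, 3 at 120 min, 6 to 8 at 180 min and 7 to 9 at any time. It was 2 to 5 at 0 min (5 without CEN4 replicate 3 of 120 min), and 3 to 6, 3 to 5, 4 to 5 and 8 to 9 in the direct comparison at 30, 60, 120 and 180 min (3 without CEN4 replicate 2 of 30 min). GAP1 was called at 30 min, at -0.41 to -0.31, without CEN4 replicate 2 of 0 min, or cen4- replicate 3 of 30 min or 1 of 60 min, and its rise at 30 min in cen4- was lost (0.10) without cen4- replicate 3. Calls were gained by DIP5 at 60 min in cen4- (0.13 to 0.17) and BAP3 in the direct comparison at 180 min (-0.10 to -0.078), each without any of 8 libraries, and at 0 min by AGP1 (0.11, 4 libraries) and DIP5 (0.16, without CEN4 replicate 3 of 120 min). BAP3 in CEN4 at 60 min lost its call, at -0.090 to -0.084, without replicate 3 of 0 or of 60 min. Signs near 0 were unstable: the excision effect ran from -0.075 to 0.051 for GAP1 at 180 min, from -0.014 to 0.071 and from -0.017 to 0.14 for DIP5 at 30 and 120 min, and from -0.095 to 0.0043 and from -0.021 to 0.052 for CAN1 at 30 and 60 min. At 0 min HIP1 ran from -0.0049 to 0.039 and TAT2 from -0.038 to 2.9e-05. With 3 libraries a group and a median SE of 0.083 for an excision effect, differences near 0.1 on the log2 scale were not detectable for most genes.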
